A study of Mus musculus with 23 samples.

Results

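Adipokines are proteins that fat tissue secretes, and 9 of their genes were followed here in mammary fat pad next to a growing breast tumor: Lep, Adipoq, Retn, Cfd, Rbp4, Nampt, Apln, Nrg4 and Rarres2. They were taken by name from 47311 genes. The levels of each gene's transcripts were added within every library and compared over 4 groups of female C57BL/6J mice. The obese mice had been on food with 60% of its energy from fat from 8 to 26 weeks of age, and the lean mice are labelled with food at 10%, although the treatment text given with each library names only the high-fat food. All mice received 250000 E0771 cells, a mouse mammary carcinoma line carrying luciferase, in mammary gland 4. From day 3 until day 21 they were given, every 3 days, 200 µg of anti-PD-1, an antibody against a receptor that restrains T cells, or the same amount of the isotype control IgG2a. Lean mice numbered 5 under IgG2a and 5 under anti-PD-1, obese mice 5 and 8, with 1 library per mouse. No mouse without a tumor was among these libraries, so every group shared the tumor.

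Fat cells release hormones whose amounts follow how much lipid they store and how they are stimulated. Leptin reports fat stores to the brain, adiponectin favors insulin action, and resistin opposes it in rodents. Other secreted products act closer to home, among them a complement protease, a retinol carrier, an enzyme of NAD synthesis and ligands for receptors on vessels and immune cells. In obesity the blood level of leptin is known to go up with fat mass.

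The stretches of DNA just ahead of the start sites are shown for Lep, the adipokine that differed most, and for Retn, Cfd and Rbp4, which were lower in obese mice under both antibodies. They are RefSeq sequences of build GRCm38.p6, each the 250 bases before the start, written 5′ to 3′ on the gene's strand. The windows are chr6:29059971-29060220 (plus strand) for Lep, chr8:3655520-3655769 (plus) for Retn, chr10:79890603-79890852 (plus) for Cfd and chr19:38124812-38125061 (minus) for Rbp4. Capitals mark matches to the motifs searched.
Lep: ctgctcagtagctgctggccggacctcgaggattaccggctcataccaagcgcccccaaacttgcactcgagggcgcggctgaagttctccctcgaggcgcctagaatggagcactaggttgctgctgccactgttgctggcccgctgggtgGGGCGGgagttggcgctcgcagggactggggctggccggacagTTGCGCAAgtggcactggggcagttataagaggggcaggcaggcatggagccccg
Retn: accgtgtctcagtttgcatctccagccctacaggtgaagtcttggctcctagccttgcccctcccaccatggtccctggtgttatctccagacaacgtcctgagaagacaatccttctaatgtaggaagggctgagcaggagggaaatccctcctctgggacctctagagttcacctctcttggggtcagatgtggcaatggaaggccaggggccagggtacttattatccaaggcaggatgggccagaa
Cfd: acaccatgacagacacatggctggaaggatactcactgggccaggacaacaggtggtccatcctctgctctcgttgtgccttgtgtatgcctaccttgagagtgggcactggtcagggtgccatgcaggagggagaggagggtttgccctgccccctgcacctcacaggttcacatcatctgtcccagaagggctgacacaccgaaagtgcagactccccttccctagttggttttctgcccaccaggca
Rbp4: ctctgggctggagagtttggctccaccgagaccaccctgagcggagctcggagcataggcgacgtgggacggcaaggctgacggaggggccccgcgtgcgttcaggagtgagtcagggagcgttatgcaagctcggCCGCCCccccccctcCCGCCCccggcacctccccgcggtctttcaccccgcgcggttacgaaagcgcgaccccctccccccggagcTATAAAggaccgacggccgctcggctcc
The motifs, searched on both strands, were the palindromic form of the C/EBP site (TTGCGCAA), the box bound by the factor NF-Y (CCAAT), the TATA box (TATAAA), the GC box (GGGCGG, which reads CCGCCC from the other strand), a nuclear receptor site (AGGTCA) and the E-box (CACGTG). Of the 9 genes, 8 had a promoter in the table, in 9 windows because Rbp4 has a pair of starts, and Rarres2 was not matched. No match in these windows overlapped another. Lep alone held TTGCGCAA, 55 bases before its start, and this octamer was in 54 of 32851 windows of the same length (0.164%). Lep also held GGGCGG, at 98 bases. The printed Rbp4 window held TATAAA 28 bases before its start and CCGCCC at 114 and 99 bases, and TATAAA was in 12.4% of all windows. GGGCGG or its complement was found in Lep, Nampt, Rbp4 and Apln (32.7% of all windows), CCAAT in Adipoq and Rbp4 (33.8%) and AGGTCA in Nrg4 and Nampt (14.0%). CACGTG, in 6.02% of all windows, was in none of the 9, and the Retn and Cfd windows held none of the motifs. These matches are a description of letters and not of binding.

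Libraries held 49438121 to 77369057 estimated counts. All 16 fat cell markers, such as Plin1 and Fabp4, were measured in every group, with a summed level of 7301 to 68586 CPM (counts scaled to library size) over the libraries, so the labelled tissue was present throughout. Fat cell content of the libraries varied, and is written below as the fat cell score, the mean log2 CPM of those markers. Bulk RNA cannot tell fewer cells of a type from less RNA per cell. Libraries also fell into separate sets by B cell markers: 11 had a B cell score of 5.31 to 8.41 and 12 had at most -0.63. Markers of lymph node stroma split the same libraries, with a score of 4.34 to 7.55 in the high set and -3.71 to -1.81 in the low set. The B cell score thus also follows lymph node markers, and whether lymph node tissue was in these pads was not tested. The high set held 4 of 5 and 3 of 5 lean libraries (IgG2a and anti-PD-1) and 2 of 5 and 2 of 8 obese ones. Liver markers were high in obese IgG2a library 5 alone (score 9.10). The labels state an RNA integrity number above 5 as the entry limit.

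Compared on the TPM scale, which allows for transcript length, Cfd had the highest level of the 9 genes. Its level averaged 7823 TPM over the 4 group means, rank 12 of all genes, and it was followed by Adipoq at 2612 TPM (rank 41) and Retn at 1510.4 TPM (rank 90). Lep averaged 609.6 TPM, Rbp4 441 TPM and Rarres2 363 TPM. Nrg4 (27.8 TPM) and Nampt (26.4 TPM) were neighbors that did not differ beyond their spread, and Apln was lowest at 2.98 TPM (rank 12008). The order of Lep depended on the group: it stood at 64.3 ± 36.4 TPM (SD, n = 5) in lean IgG2a mice, below Rbp4 and Rarres2, and at 1793 ± 1167 TPM (SD, n = 8) in obese anti-PD-1 mice, above Retn at 1073 ± 502 TPM. Together the 9 genes made up 1.10 to 2.81% of all TPM in lean and 0.409 to 1.35% in obese libraries under IgG2a, and 0.911 to 1.88% and 0.224 to 1.61% under anti-PD-1. Lep varied most between libraries, with 86.0-fold between the lowest and the highest CPM, and Nampt least, with 1.97-fold.

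**Figure D1:**
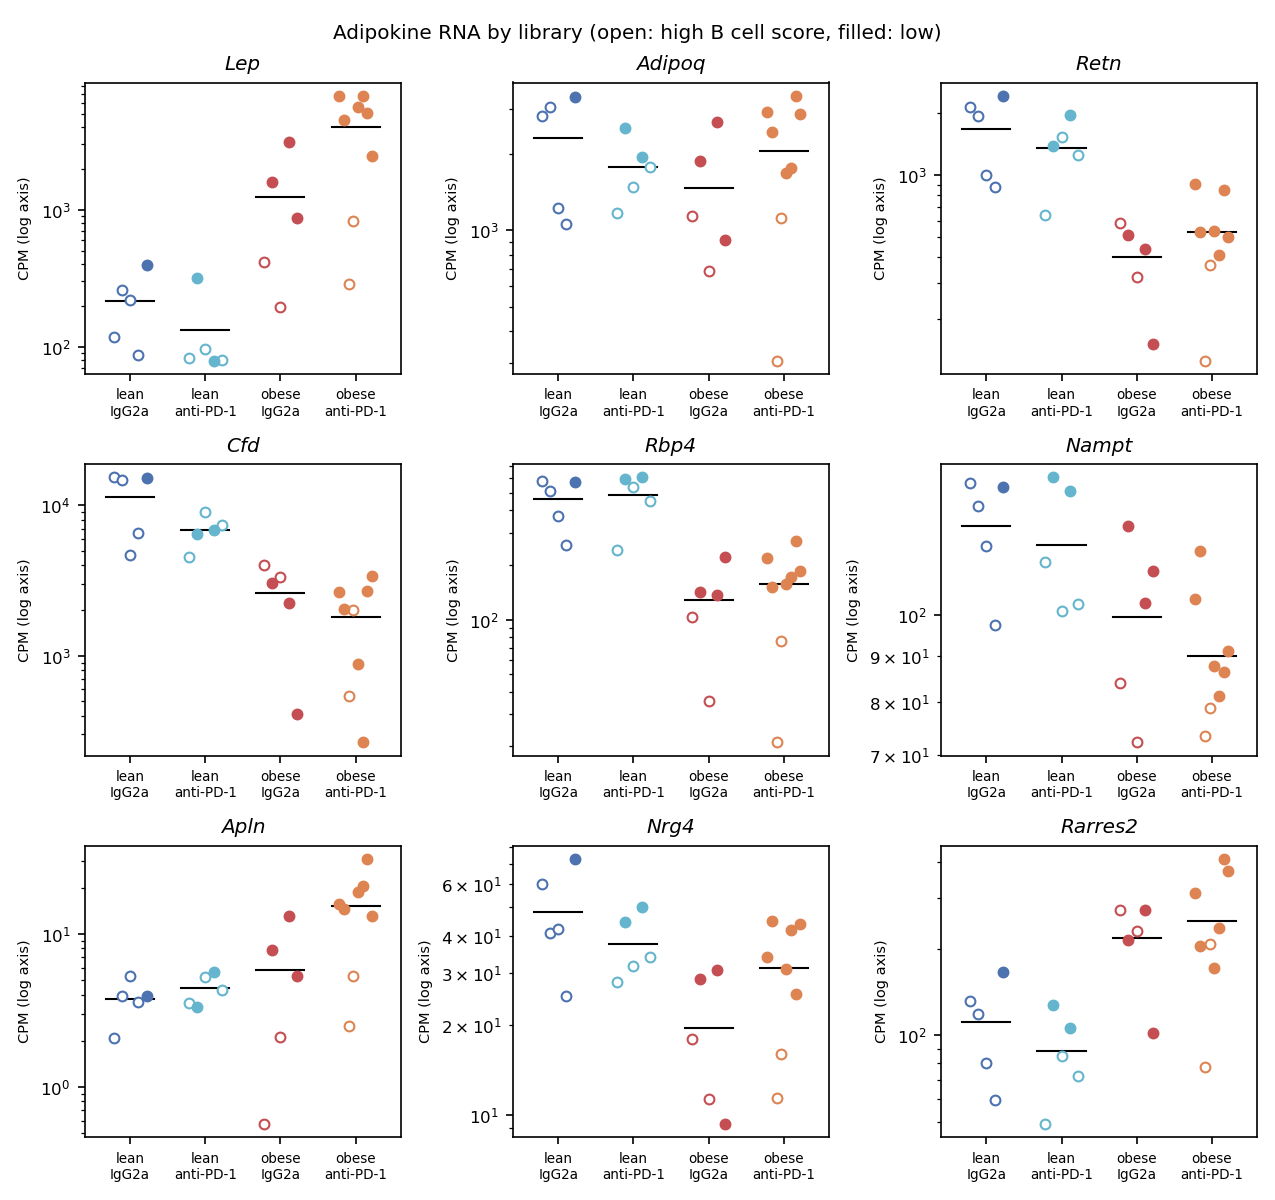
Level of each adipokine gene in every library (CPM, log axis) for the 4 groups; lines are group means and open points are libraries with a high B cell score. Cfd in all 8 obese anti-PD-1 libraries lay under every lean anti-PD-1 library, and Lep in 7 of those 8 lay over every lean one.

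The adipokine genes differed with obesity in opposite directions. In obese against lean mice given IgG2a, 4 of the 9 genes fell (Retn, Cfd, Rbp4 and Nrg4) and none rose, beside 5.79% of all 19882 genes tested that were called (2.68% higher, 3.12% lower). A gene is called at an adjusted p under 0.05 in edgeR's quasi-likelihood test. Under anti-PD-1, Lep, Apln and Rarres2 rose and Retn, Cfd and Rbp4 fell, which is 6 of 9 beside 10.1% of all genes (5.2% higher, 4.85% lower). Over the mean of both antibodies 3 rose and 5 fell, 8 of 9 beside 18.8% of all genes (10.6% higher, 8.15% lower), and only Adipoq was not called. The median log2 fold change of the 9 genes was -0.66 under IgG2a and -0.28 under anti-PD-1, beside 0.12 and 0.08 over all genes. The p-values set each difference against the spread between mice, which the fit estimated over all 4 groups together. On the TPM scale with a pseudocount of 1 the median of all genes was 0.19 under IgG2a and 0.27 under anti-PD-1, and of all genes 514 were called higher and 298 lower under IgG2a and 3155 higher and 421 lower under anti-PD-1, in place of 532 and 620 and of 1034 and 965 on counts.

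**Figure D2:**
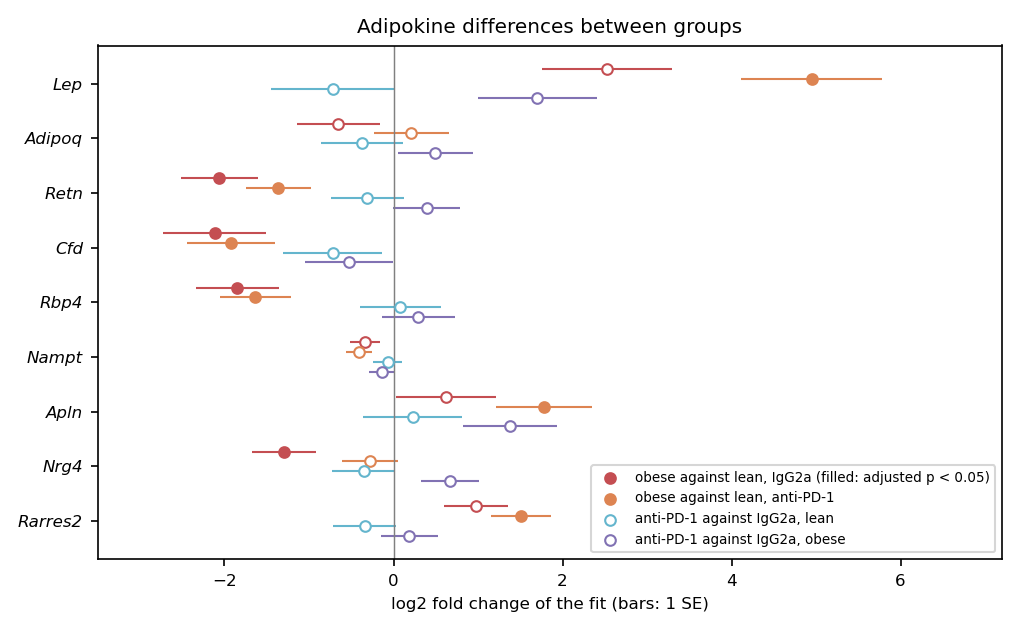
Log2 fold change of the fit with 1 SE for the 9 genes in 4 comparisons; filled points have an adjusted p under 0.05. Retn, Cfd and Rbp4 lie to the left of 0 in both obesity comparisons, Lep and Rarres2 to the right, and no antibody comparison has a filled point.

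Lep encodes leptin, the hormone by which fat cells signal energy stores. The gene (ENSMUSG00000059201) lies on chromosome 6, 29060220 to 29073877, plus strand. Its level was 118, 259, 218, 87.3 and 396 CPM in the lean IgG2a libraries and 83.3, 319, 96.3, 79.1 and 79.3 CPM in the lean anti-PD-1 libraries. It was 416, 1609, 195, 3144 and 868 CPM in the obese IgG2a libraries. In the obese anti-PD-1 libraries the lowest level was 286, the median 4829 and the highest 6809.8 CPM. Lean and obese libraries overlapped under both antibodies: 4 of 5 obese IgG2a libraries and 7 of 8 obese anti-PD-1 libraries lay above the lean maximum. Under anti-PD-1, Lep rose by 4.95 on the log2 scale (SE 0.84, adjusted p = 0.000648), with means of 131 ± 105 (SD, n = 5) and 4058 ± 2558 CPM (SD, n = 8), a ratio of 30.9. That call held without each of the 23 libraries in turn and in all 12 other alternatives. Under IgG2a the means were 216 ± 123 and 1246 ± 1191 CPM, a ratio of 5.78, and the difference of 2.53 (SE 0.77, adjusted p = 0.0536) did not pass. It passed without obese anti-PD-1 library 3 or 4, obese IgG2a library 1 or 3 or lean anti-PD-1 library 2 (adjusted p 0.0258 to 0.0470), and in 6 other alternatives, DESeq2's Wald test (0.00369) among them. Over both antibodies Lep rose by 3.74 (SE 0.56, adjusted p = 7.61e-05).

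Adipoq encodes adiponectin, the abundant hormone of fat cells that favors insulin action. The gene is on chromosome 16, 23146536 to 23158028, plus strand. Lean IgG2a libraries held 2812, 3045, 1219, 1057 and 3349.9 CPM, and lean anti-PD-1 libraries 1164, 2518, 1472, 1929.7 and 1778 CPM. Obese IgG2a libraries held 1139.9, 1871, 688, 2671 and 915 CPM. The obese anti-PD-1 libraries ranged from 306 over a median of 2085 to 3376 CPM. All 4 groups overlapped, and the obese anti-PD-1 group reached both above and below the lean one. The log2 difference was -0.66 (SE 0.49, adjusted p = 0.535) under IgG2a and 0.21 (SE 0.44, adjusted p = 0.853) under anti-PD-1. Neither passed, and the sign turned to 0.003 and -0.11 with the fat cell score as a covariate. The ratio of Lep to Adipoq on the TPM scale, in contrast, separated lean from obese libraries. It ran from 0.0113 to 0.0449 over the lean libraries. Over the obese ones it ran from 0.0845 to 0.273 under IgG2a and from 0.224 to 0.907 under anti-PD-1. Every obese library thus lay above every lean one, while the obese groups overlapped each other. How many other pairs of genes have such a ratio was not counted.

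Retn encodes resistin, a hormone that white fat cells of rodents secrete. Its place is on chromosome 8, 3655770 to 3660110, plus strand. Its level was 2145, 1937, 1005, 881 and 2434 CPM in lean IgG2a and 586, 514, 322, 438 and 152 CPM in obese IgG2a libraries. Under anti-PD-1 the lean libraries held 640.1, 1382, 1541, 1966 and 1254 CPM, and the obese ones 126 at the lowest, 517 at the median and 904 at the highest. Under IgG2a the groups did not overlap, with all 5 obese libraries below the lean minimum. Under anti-PD-1 6 of 8 obese libraries were below it. Retn fell by 2.06 under IgG2a (SE 0.45, adjusted p = 0.00897), a call that leaving out any 1 library did not end. It fell by 1.36 under anti-PD-1 (SE 0.39, adjusted p = 0.0277). That call was lost without lean anti-PD-1 library 2 (adjusted p = 0.0544), 3 (0.0507) or 4 (0.0987), and on the TPM scale (0.0905 with a pseudocount of 1). The level of Retn was 20.7 to 119 times that of Lep over the lean libraries, on the TPM scale, 0.662 to 7.85 times in obese IgG2a and 0.284 to 2.12 times in obese anti-PD-1 libraries.

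Cfd encodes adipsin, or complement factor D, the protease that cleaves factor B in the alternative complement pathway. It lies on chromosome 10, 79890853 to 79892655, plus strand. Lean IgG2a libraries held 15309, 14782, 4683, 6514 and 15178 CPM and obese IgG2a libraries 3998, 3051, 3311, 2241 and 412 CPM. Lean anti-PD-1 libraries held 4551, 6401, 9075, 6857 and 7417 CPM, and obese anti-PD-1 libraries ranged from 266 over a median of 2030.2 to 3406 CPM. Every obese library lay below every lean library of the same antibody. Such a separation with the obese group lower held for 4.42% of all genes tested under IgG2a and 3.11% under anti-PD-1; of the 9 genes it held for Retn, Cfd and Rbp4 under IgG2a and for Cfd under anti-PD-1. Cfd fell by 2.12 under IgG2a (SE 0.61, adjusted p = 0.0407). Although no library overlapped, the call was lost without any of 11 of the 23 libraries (obese anti-PD-1 1 and 2, obese IgG2a 2 to 5, lean anti-PD-1 3 and 5, lean IgG2a 1, 2 and 5), with adjusted p of 0.0503 to 0.110. It was also lost in other alternatives, among them the fat cell score as a covariate (0.0632) and a fit of only the groups compared (0.0779). Under anti-PD-1 Cfd fell by 1.92 (SE 0.52, adjusted p = 0.0211), and this call was lost without lean anti-PD-1 library 3 (0.050004). Over both antibodies it fell by 2.02 (SE 0.40, adjusted p = 0.00125), and Retn and Rbp4 by 1.71 (SE 0.30, 0.000352) and 1.74 (SE 0.32, 0.000684).

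Rbp4 encodes the plasma carrier of retinol, made by the liver and by fat cells. The gene is on chromosome 19, 38116629 to 38125281, minus strand. The levels were 581, 511, 375, 259 and 575 CPM in lean IgG2a and 103, 142, 35.5, 136 and 222 CPM in obese IgG2a libraries, with no overlap. They were 241, 596, 539, 608 and 449 CPM in lean anti-PD-1 libraries. In obese anti-PD-1 libraries they ran from 21.0 over a median of 164 to 271 CPM, and 7 of 8 were below the lean minimum. Rbp4 fell by 1.85 under IgG2a (SE 0.49, adjusted p = 0.0281) and by 1.64 under anti-PD-1 (SE 0.42, adjusted p = 0.0163). The IgG2a call was lost without lean IgG2a library 1, 2 or 5 or obese IgG2a library 2 (adjusted p 0.0515 to 0.0727), and the anti-PD-1 call without lean anti-PD-1 library 4 (0.0508). Neither held on the TPM scale with a pseudocount of 1 (adjusted p = 0.104 and 0.0753). The highest obese IgG2a value, 222 CPM, was that of library 5, in which the summed level of 8 liver markers was 9146 CPM against at most 224 CPM in all other libraries. The same library held the lowest obese IgG2a levels of Retn (152 CPM), Cfd (412 CPM), Rarres2 (102 CPM) and Nrg4 (9.30 CPM). It was not the lowest of its group for Lep, Adipoq, Nampt or Apln. Whether liver RNA bore on any of these values was not tested.

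Nampt encodes the rate-limiting enzyme of NAD salvage, which is also found outside cells as visfatin. It lies on chromosome 12, 32819545 to 32853349, plus strand. It was the steadiest of the 9 genes: 140.2, 132, 119, 97.5 and 139 CPM in lean IgG2a, 115, 142, 101, 137 and 103 CPM in lean anti-PD-1 and 84.1, 126, 72.3, 103 and 112 CPM in obese IgG2a libraries. Obese anti-PD-1 libraries ranged from 73.5 over a median of 87.1 to 118 CPM. The groups overlapped, with 2 of 5 and 6 of 8 obese libraries below the lean minimum. The log2 difference was -0.34 (SE 0.17, adjusted p = 0.288) under IgG2a and -0.41 (SE 0.15, adjusted p = 0.0944) under anti-PD-1. Neither passed, although the anti-PD-1 difference did so in 4 alternatives (adjusted p 0.00643 to 0.0427), among them the fat cell score (-0.44, 0.0134) and the B cell score (-0.50, 0.00643) as covariates, and the IgG2a difference in 1, with the B cell score (-0.43, 0.0304). Over both antibodies Nampt fell by 0.37 (SE 0.12, adjusted p = 0.0268), and on the TPM scale with a pseudocount of 1 that difference was 0.04 (0.878), of the opposite sign. The call was also lost without any of 6 libraries (obese IgG2a 1, lean anti-PD-1 2 and 4, lean IgG2a 1, 2 and 5), with adjusted p of 0.0519 to 0.0624, and in 5 other alternatives (0.0628 to 0.887).

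Apln encodes apelin, a peptide that acts on the receptor encoded by Aplnr, chiefly on vessels and heart. It lies on the X chromosome, 48025146 to 48034853, minus strand. Its levels were low: 2.07, 3.93, 5.28, 3.59 and 3.91 CPM in lean IgG2a libraries and 3.54, 3.31, 5.20, 5.64 and 4.27 CPM in lean anti-PD-1 libraries. Obese IgG2a libraries held 0.570, 7.85, 2.12, 13.1 and 5.29 CPM, from 38 estimated counts in the lowest. Obese anti-PD-1 libraries ranged from 2.49 over a median of 15.1 to 30.7 CPM, and 6 of 8 exceeded every lean anti-PD-1 library while 1 lay below them all. Apln rose by 1.78 under anti-PD-1 (SE 0.57, adjusted p = 0.0494), with means of 4.39 ± 1.01 and 15.1 ± 8.82 CPM (SD, n = 5 and 8). That call stood at the threshold: it remained only without obese IgG2a library 1, 3, 4 or 5 or obese anti-PD-1 library 3 or 4, and without any of the other 17 libraries the adjusted p was 0.0530 to 0.109. Under IgG2a the difference was 0.62 (SE 0.59, adjusted p = 0.663). Over both antibodies Apln rose by 1.20 (SE 0.41, adjusted p = 0.0423), which was lost without any of 13 libraries (obese anti-PD-1 5 to 7, obese IgG2a 2, 4 and 5, lean anti-PD-1 1, 2 and 5, lean IgG2a 1, 2, 4 and 5), with adjusted p of 0.0524 to 0.103.

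Rarres2 encodes chemerin, which draws immune cells through the receptor encoded by Cmklr1. It lies on chromosome 6, 48569696 to 48572789, minus strand. Lean IgG2a libraries held 132, 118, 80.2, 59.5 and 167 CPM and obese IgG2a libraries 274, 215, 231, 272 and 102 CPM. Lean anti-PD-1 libraries held 49.2, 128, 84.7, 106 and 72.2 CPM, and obese anti-PD-1 libraries ran from 77.8 over a median of 222 to 411 CPM. Of the obese libraries, 4 of 5 and 7 of 8 lay above the lean maximum, so the groups overlapped by 1 library each. Rarres2 rose by 1.5 under anti-PD-1 (SE 0.35, adjusted p = 0.00954), a call held without each library in turn, from 88.0 ± 30.3 to 249.5 ± 110.1 CPM. Under IgG2a the difference was 0.98 (SE 0.37, adjusted p = 0.133) and did not pass. It passed in 3 alternatives, such as voom with library quality weights (0.0295). Over both antibodies Rarres2 rose by 1.24 (SE 0.26, adjusted p = 0.00179).

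Nrg4 encodes neuregulin 4, a growth factor of the EGF family that fat cells release and that acts on ErbB receptors. It lies on chromosome 9, 55220222 to 55326844, minus strand. It stood at 59.7, 40.8, 42.2, 25.2 and 72.6 CPM in lean IgG2a and at 17.9, 28.7, 11.3, 30.6 and 9.30 CPM in obese IgG2a libraries, of which 3 of 5 lay below the lean minimum. Lean anti-PD-1 libraries held 28.1, 44.5, 31.7, 50.0 and 33.8 CPM and obese anti-PD-1 libraries 11.3 at the lowest, 32.4 at the median and 44.9 at the highest, which overlapped widely. Nrg4 fell by 1.30 under IgG2a (SE 0.38, adjusted p = 0.0447). The call was lost without any of 13 libraries (obese anti-PD-1 1, 5 and 7, obese IgG2a 1, 3 and 5, lean anti-PD-1 2, 3 and 5, lean IgG2a 1, 2, 3 and 5), with adjusted p of 0.0508 to 0.134. It was also lost in other alternatives (0.0556 to 0.267), among them no filter on low counts (0.0556) and a fit of only the groups compared (0.0879). Under anti-PD-1 the difference was -0.28 (SE 0.33, adjusted p = 0.704), and on the TPM scale it was 0.15. Over both antibodies Nrg4 fell by 0.79 (SE 0.25, adjusted p = 0.0314), lost without lean IgG2a library 1 or 5, lean anti-PD-1 library 2 or 4 or obese IgG2a library 5 (0.0516 to 0.0762), and on both TPM scales (0.370 and 0.380). The difference between the obesity effects under the 2 antibodies was 1.02 on the log2 scale and did not pass.

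None of the 9 genes differed between the antibodies past the threshold. In lean mice 0 of 9 were called, beside 0% of all genes tested in edgeR, and 0 of 9 had an unadjusted p under 0.05, against 472 of all genes. DESeq2's Wald test called 22 genes there and voom 1, none of them an adipokine. In obese mice 0 of 9 were called beside 0.538% of all genes. Of the 9, 2 had an unadjusted p under 0.05, against 2700 of all 19882 genes tested. These were Lep, 1.70 higher under anti-PD-1 (SE 0.70, adjusted p = 0.288), and Apln, 1.38 higher (SE 0.56, adjusted p = 0.280). For each, 5 of 8 obese anti-PD-1 libraries lay above the highest obese IgG2a library. DESeq2 called neither (adjusted p = 0.110 for Lep and 0.137 for Apln), while voom with library quality weights called both (0.0330 and 0.0334). Over the other alternatives the adjusted p reached 0.736 for Lep and 0.714 for Apln, both with the fat cell score as a covariate. The differences were then smaller, at 0.53 for Lep and 0.71 for Apln. No adipokine separated the antibody groups without overlap, which 0.553% of all genes did in lean and 0.111% in obese mice.

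The interaction asks whether obesity acted differently under the 2 antibodies, and edgeR called 0 of 9 adipokines and 0% of all genes in it. Lep had the smallest unadjusted p of the 9, with an obesity effect 2.42 larger under anti-PD-1 on the log2 scale (SE 1.01, adjusted p = 0.645). Of all genes, 1449 had an unadjusted p under 0.05. DESeq2 called 50 genes and none of the adipokines, and voom with quality weights called 629, with Lep among them (2.80, adjusted p = 0.0307). With the fat cell score as a covariate the Lep value was 1.20 (adjusted p = 0.626). Over the other alternatives the adjusted p for Lep reached 0.907, so a larger obesity effect on Lep under anti-PD-1 was not shown.

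To set the genes beside the fat cell content of each library, the fat cell score was subtracted from each log2 CPM. Lep relative to that score was -2.52 ± 0.65 in lean IgG2a and 0.30 ± 0.84 in obese IgG2a mice (SD, n = 5 each), and -3.22 ± 0.70 (n = 5) and 1.28 ± 0.67 (n = 8) under anti-PD-1. In contrast to its CPM, this relative level did not overlap between lean and obese libraries under either antibody. Rarres2 also separated under both, by 1.69 under IgG2a and 1.27 under anti-PD-1. Apln separated under anti-PD-1, by 1.33. Retn, Cfd and Rbp4 were lower without overlap under anti-PD-1, by -1.62, -2.44 and -2.01. The relative level of Adipoq differed by 0.03 and -0.17, within its spread. Thus 2 of 9 genes were higher without overlap under IgG2a, beside 3.24% of all genes, and 0 were lower, beside 0.986%. Under anti-PD-1 3 were higher, beside 2.93%, and 3 lower, beside 1.34%.

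**Figure D3:**
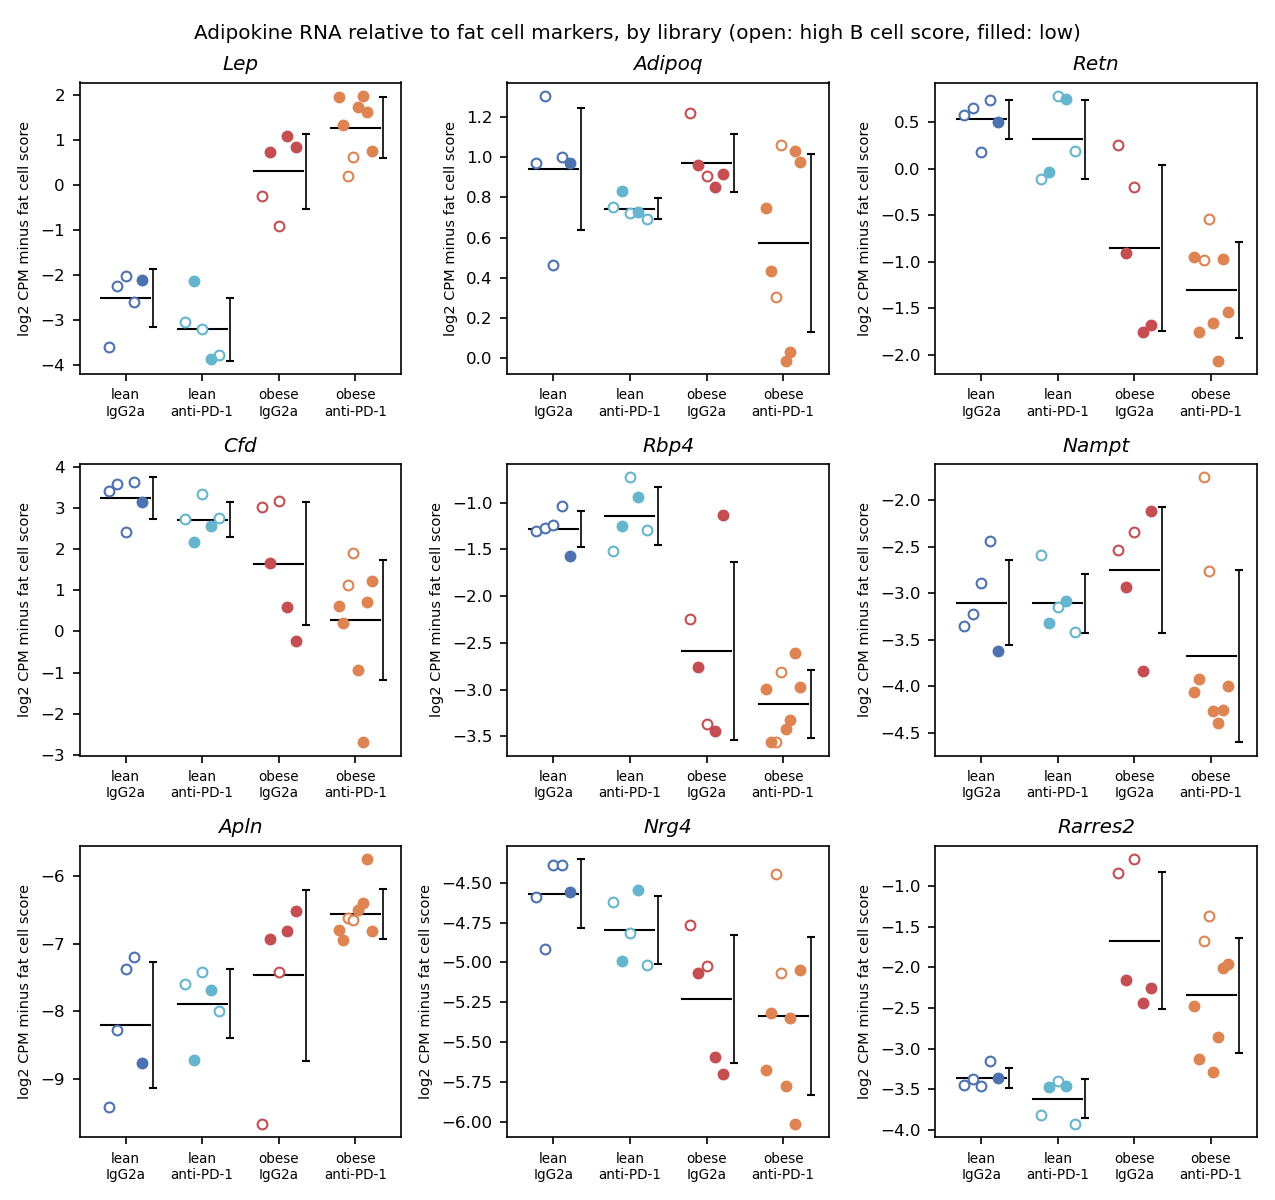
Log2 CPM of each adipokine minus the fat cell score of the same library, by group, with mean and SD. Obese libraries lie above all lean ones for Lep and Rarres2 under both antibodies, while the 4 groups overlap for Adipoq.

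The same score was entered as a covariate in the fit. Lep then rose by 3.14 under IgG2a (adjusted p = 8.54e-06) and by 4.33 under anti-PD-1 (4.84e-08). Rarres2 rose by 1.45 (adjusted p = 0.00319) and 1.38 (0.000813), and Apln by 1.34 under anti-PD-1 (0.0321). Retn fell by 1.47 (adjusted p = 0.00600) and 1.57 (0.000300), and Rbp4 by 1.15 (0.0331) and 1.97 (4.19e-05). Cfd fell by 2.02 under anti-PD-1 (adjusted p = 0.00587) and was at -1.75 under IgG2a (0.0632), where it no longer passed. Of the 16 fat cell markers themselves, 2 were called under IgG2a, beside 5.79% of all genes, and 2 under anti-PD-1, beside 10.1%: Adig fell under both antibodies, Gpd1 under IgG2a, and Plin4 rose under anti-PD-1. Over both antibodies 1 rose and 3 fell, beside 18.8% of all genes, with Pnpla2 also falling (by 0.93, adjusted p = 0.0207).

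**Figure D4:**
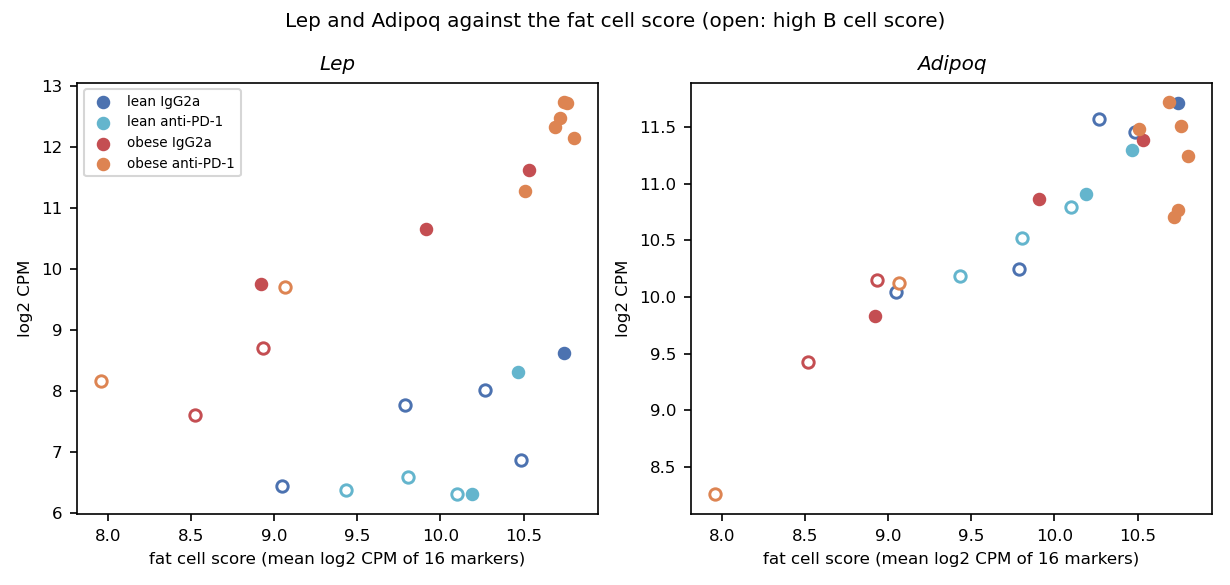
Lep (left) and Adipoq (right), both as log2 CPM, against the fat cell score of the library, by group. Libraries with a higher score tended to hold more Adipoq in all groups, with exceptions. At a like score the obese libraries held more Lep than the lean ones.

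Within the obese groups the level of Lep moved with the B cell score. In obese anti-PD-1 mice the libraries with a high score (3 and 4) held 286 and 830.0 CPM of Lep, and the 6 others 2479.6 to 6809.8 CPM. In obese IgG2a mice libraries 3 and 1 held 195 and 416 CPM and the others 868 to 3144 CPM. Apln did likewise, at 2.49 and 5.31 CPM against 13.0 to 30.7 CPM in obese anti-PD-1 mice, and at 0.570 and 2.12 CPM against 5.29 to 13.1 CPM in obese IgG2a mice. Rbp4 split the same way, at 21.0 and 76.6 against 151 to 271 CPM in obese anti-PD-1 and 35.5 and 103 against 136 to 222 CPM in obese IgG2a libraries. So did Nampt, at 73.5 and 78.9 against 81.4 to 118 CPM and at 72.3 and 84.1 against 103 to 126 CPM. The share of all genes that split in this way was not counted. With so few libraries in each set, the split is not shown to be particular to these adipokines. The fat cell score of these high-score libraries was low: 7.96 and 9.07 in obese anti-PD-1 mice against 10.5 to 10.8 in the 6 others, and 8.52 and 8.93 in obese IgG2a mice against 8.92, 9.91 and 10.5. The part of either score in these levels was not tested. The fit was repeated with the B cell score as a covariate, in which Lep rose by 1.70 under IgG2a (adjusted p = 0.0172) and by 3.89 under anti-PD-1 (1.69e-05). Apln was then at -0.10 (adjusted p = 0.934) and 0.99 (0.196), so its call was lost. Among the 11 high-score libraries alone Lep was at 0.81 under IgG2a (adjusted p = 0.288), rose by 2.73 under anti-PD-1 (0.0170) and Apln was at -0.11 under anti-PD-1 (0.947). Among the 12 low-score libraries both rose under anti-PD-1, by 4.63 (0.00202) and 1.99 (0.0149). The B cell markers themselves were not called with obesity (0 of 8 under either antibody). Their summed level ran from 4.73 to 1650.0 CPM in lean and 6.90 to 2554 CPM in obese libraries under IgG2a, and from 1.36 to 2177 CPM and 1.49 to 3162 CPM under anti-PD-1, and none was at 0 throughout a group.

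The low-score set holds 1 lean IgG2a library, so its differences under IgG2a are given without a test: -1.84 for Rbp4, -2.77 for Retn, -3.04 for Cfd and 2.18 for Lep. In the high-score libraries Rbp4 fell by 2.66 under IgG2a (adjusted p = 0.0246) and by 3.04 under anti-PD-1 (0.0294), and in the low-score libraries by 1.73 under anti-PD-1 (0.00152). Retn fell by 1.52 under anti-PD-1 in the low-score libraries (adjusted p = 0.0256) and was at -1.74 (0.0700) and -2.18 (0.0728) in the high-score ones. Under a single antibody Cfd did not pass, with -1.52 (adjusted p = 0.135) and -2.43 (0.0746) in the high-score libraries and -1.81 (0.130) under anti-PD-1 in the low-score ones. Over both antibodies Cfd fell in each set, by 1.97 (adjusted p = 0.0116) in the high-score and 2.43 (0.0264) in the low-score libraries. Rarres2 rose under IgG2a in the high-score set, by 1.35 (adjusted p = 0.0465), and its anti-PD-1 call was lost in the high-score (0.186) and the low-score set (0.0717). Over both antibodies it rose by 1.22 (adjusted p = 0.0120) in the high-score set and was at 0.70 (0.199) in the low-score one. The values over both antibodies in the low-score set rest in part on the single lean IgG2a library, which is assumed to vary like the others.

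Markers of other cells moved with obesity beside the adipokines, and their counts stand beside 5.79% of all genes called under IgG2a (2.68% higher, 3.12% lower) and 10.1% under anti-PD-1 (5.2% higher, 4.85% lower). Mammary epithelium markers fell for 4 of 10 under IgG2a and 9 of 10 under anti-PD-1, with a summed level of 1196 to 4386 CPM in lean and 279 to 1646 CPM in obese libraries. Markers of brown-type fat cells fell for 5 of 6 under each antibody, from 199 to 1667 CPM in lean to 9.34 to 40.3 CPM in obese libraries. Skeletal muscle markers fell for 4 of 8 under anti-PD-1. Macrophage markers rose for 2 of 8 and liver markers for 6 of 8 under IgG2a, and 1 of 6 neutrophil markers rose under each antibody. The muscle and liver counts rested on few libraries. The muscle score was 5.99 and 7.75 in lean anti-PD-1 libraries 1 and 2. It was -2.86 to -2.03 in the other lean anti-PD-1 libraries and -2.15 to 0.43 in the obese anti-PD-1 ones. The liver score was 9.10 in obese IgG2a library 5 and at most 2.22 in all other libraries. No epidermis, lymph node stroma, endothelium or fibroblast marker was called under either antibody. Over both antibodies together, beside 18.8% of all genes, 3 of 5 epidermis, 1 of 6 endothelium, 1 of 6 fibroblast, 10 of 10 mammary epithelium, 5 of 8 muscle and 5 of 6 brown-type fat markers fell, and 4 of 8 macrophage, 4 of 6 neutrophil and 4 of 8 liver markers rose. The part of these cells in the adipokine values was not tested.

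The genes whose levels ran most closely with each adipokine were sought after the mean of its group was taken from every library, over 23 libraries and 11829 genes. Values are Spearman correlations, given as a description, and libraries share depth and tissue makeup across genes. Lep ran with Lpgat1 (0.976), Ldah (0.969) and Fads3 (0.964), and Adipoq with Art3 (0.962), Sod3 (0.954) and Fah (0.951). Retn ran with Mdh1 (0.959), Selenof (0.943) and Ppp1r1a (0.937), and Rarres2 with Ltc4s (0.956), Htatip2 (0.928) and Rheb (0.924). For Cfd the genes were Ddt (0.924), Isoc2a (0.920) and Mrpl27 (0.908), and for Rbp4 Acaa1b (0.896), Orm1 (0.885) and Gldc (0.883). For Apln they were Ampd3 (0.934), Map6 (0.907) and Mtmr6 (0.901), for Nrg4 Acad10 (0.903), Efs (0.887) and Ctps2 (0.879), and for Nampt Atg4c (0.862), Cyb5r1 (0.857) and Dmwd (0.850). Between adipokines the closest pairs were Adipoq with Rarres2 (0.781), Retn with Rarres2 (0.755) and Adipoq with Retn (0.726). Lep was at 0.711 with Adipoq, 0.701 with Apln and -0.05 with Cfd, so the most abundant adipokine and leptin did not run together within groups.

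Most adipokines were counted almost wholly from 1 transcript. Lep-201 held 98.0 to 100% of the TPM of Lep, Retn-201 96.9 to 98.6% of Retn and Rbp4-202 98.3 to 100% of Rbp4, and Cfd, Nampt and Apln had 1 listed transcript each. Adipoq was split between Adipoq-201 (median 66.4%) and Adipoq-202 (33.6%), and Rarres2 among 5 listed transcripts led by Rarres2-201 (45.0%). Nrg4 differed from the other genes: of its 13 listed transcripts the largest share belonged to Nrg4-209, a processed transcript annotated as non-coding, with a median of 43.7% (21.1 to 64.1%). A coding transcript held a median of 12.8% (2.17 to 49.5%), with group means of 16.8% in lean and 5.53% in obese mice under IgG2a, and 25.1% and 12.3% under anti-PD-1. Shares of a transcript are model estimates from reads that several transcripts hold in common.

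Of 13 measured receptors and partners of these adipokines, 1 rose under IgG2a, beside 5.79% of all genes called, and none was called under anti-PD-1, beside 10.1%, with medians of -0.20 and 0.04. The one that rose was Ttr, the plasma partner of retinol-binding protein and a liver product, at 9.96 (adjusted p = 0.0394). Its mean of 66.8 ± 145 CPM in obese IgG2a mice rested on library 5, and without that library the difference was 4.92 (0.391). The call was also lost without obese IgG2a library 2 or any lean IgG2a library (0.0538 to 0.110). The leptin receptor Lepr was at 0.29 and 0.19, the adiponectin receptors Adipor1 at -0.20 and -0.23 and Adipor2 at -0.69 and 0.00, the chemerin receptor Cmklr1 at -0.43 and 0.92 and the apelin receptor Aplnr at -0.43 and 0.82. Over both antibodies 2 of the 13 fell and none rose, beside 18.8% of all genes called (8.15% lower). They were the neuregulin receptor genes Erbb3 and Erbb4, which fell by 0.98 (adjusted p = 0.0266) and 0.96 (0.0240). The Erbb3 call was lost without lean IgG2a or lean anti-PD-1 library 2 (up to 0.0647), and the Erbb4 call without lean IgG2a library 1 or 5 or lean anti-PD-1 library 1 or 2 (up to 0.0584).

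Of 7 genes for the assembly and secretion of adiponectin, 2 rose under IgG2a, beside 2.68% of all genes that rose, and none was called under anti-PD-1, beside 10.1% of all genes called. Ero1a, an oxidase that forms disulfide bonds, rose by 0.95 (adjusted p = 0.0322) and Ggta1, a galactosyltransferase, by 1.07 (0.0386). Both calls were lost without obese IgG2a library 2 or 5 or any lean IgG2a library (up to 0.118 and 0.160). Over both antibodies both rose, by 0.75 (adjusted p = 0.00446) and 0.71 (0.0174), beside 10.6% of all genes that rose.

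In the alternative complement pathway, Cfb, the substrate of adipsin, rose under both antibodies while Cfd fell. Under IgG2a it stood at 165 ± 27.5 CPM in lean against 292 ± 54.1 CPM in obese mice, and 164 ± 37.6 and 312 ± 70.3 CPM under anti-PD-1. The log2 differences were 0.82 (SE 0.21, adjusted p = 0.0233), lost without lean IgG2a library 1 (0.0819), and 0.93 (SE 0.19, adjusted p = 0.00399). C3, the central component, fell by 1.35 under anti-PD-1 (adjusted p = 0.0315), from 1008 ± 130 to 394 ± 174 CPM, a call lost without obese anti-PD-1 library 1, 2, 5, 7 or 8 or lean anti-PD-1 library 1, 2, 4 or 5 (0.0520 to 0.0803). In all 1 of 12 genes rose under IgG2a, beside 5.79% of all genes called, and 1 rose and 1 fell under anti-PD-1, beside 10.1%, with medians of 1.09 and 0.41. Over both antibodies 3 of 12 rose and 1 fell, beside 18.8% of all genes called, and Cfi (4.32) and C3ar1 (1.55) were also among those that rose. Without obese IgG2a library 5 they were at 1.98 (adjusted p = 0.252) and 1.30 (0.0555), and the C3ar1 call was lost without lean IgG2a library 1 too (0.05004).

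Around Nampt, 12 genes of NAD salvage were tested, and 1 fell under IgG2a, beside 5.79% of all genes called, while 1 rose and 1 fell under anti-PD-1, beside 10.1%. Nnmt, which methylates nicotinamide and so removes the substrate of NAMPT, rose by 2.10 under anti-PD-1 (SE 0.44, adjusted p = 0.00395), from 39.7 ± 10.1 to 170 ± 78.3 CPM. Naprt, which makes NAD from nicotinic acid, fell by 0.86 (adjusted p = 0.0268), lost without lean anti-PD-1 library 4 (0.156) or 5 (0.0516). Nmnat3 fell by 1.01 under IgG2a (adjusted p = 0.0448), lost without any library of lean IgG2a, lean anti-PD-1 1, 2, 3 or 5, obese IgG2a 1, 2, 4 or 5 or obese anti-PD-1 1, 2, 7 or 8 (0.0504 to 0.178).

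Of 15 transcription factors of fat cells, 3 fell under IgG2a, beside 5.79% of all genes called, and 3 fell and 1 rose under anti-PD-1, beside 10.1%, with medians of -0.67 and 0.18. Srebf1, which drives lipid synthesis, fell by 1.82 (SE 0.25, adjusted p = 0.000114) and 1.16 (SE 0.22, adjusted p = 0.00155), from 640.3 ± 173 to 181 ± 11.9 CPM under IgG2a. Cebpb fell by 0.99 (adjusted p = 0.0345) and 1.16 (0.00364), its IgG2a call lost without any obese IgG2a library or lean IgG2a library 1, 2, 3 or 5 (0.0506 to 0.123). Mlxipl, the sugar-sensing factor ChREBP, fell by 2.13 under IgG2a (adjusted p = 0.0292), a call lost without obese IgG2a library 2 or 5 or lean IgG2a library 2, 3 or 5 (up to 0.0734). Under anti-PD-1 Esrra fell by 0.72 (adjusted p = 0.0358), lost without any lean anti-PD-1 library, lean IgG2a library 5 or obese anti-PD-1 library 1, 2, 5 or 7 (up to 0.0962). Zfp423, a factor of fat cell precursors, rose there by 2.19 (adjusted p = 0.0154). Over both antibodies 2 of 15 rose and 4 fell, beside 18.8% of all genes called, and Atf3 was also among those that rose, by 1.10 (adjusted p = 0.0140).

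Among 31 other secreted products of fat tissue, 4 rose and 2 fell under IgG2a, beside 5.79% of all genes called, and 5 rose and 3 fell under anti-PD-1, beside 10.1%, with medians of 0.45 and 0.51. Ccl2, a chemokine for monocytes, rose by 3.37 (adjusted p = 0.0136) and 3.59 (0.00474). Sfrp5, a secreted Wnt inhibitor, stood at 9.27 ± 10.2 and 2.55 ± 1.95 CPM in the lean and 369 ± 361 and 726 ± 347 CPM in the obese groups and rose by 5.31 (adjusted p = 0.00544) and 8.15 (0.000189). Angptl8, an insulin-induced regulator of lipoprotein lipase, fell by 3.76 (SE 0.67, adjusted p = 0.00175) and 2.62 (SE 0.54, adjusted p = 0.00340), from 31.6 ± 12.9 to 2.32 ± 0.967 CPM under IgG2a. None of the calls on these 3 genes ended when any 1 library was left out. C1qtnf12, a relative of adiponectin, fell by 1.57 (adjusted p = 0.00825) and 1.13 (0.0179), the latter lost without lean anti-PD-1 library 2 (0.0690) or 4 (0.0576). Its relatives C1qtnf1 (2.30) and C1qtnf7 (1.54) rose under anti-PD-1, and C1qtnf6 (1.05) rose under IgG2a, which was lost without obese IgG2a library 5 (0.0550) or lean IgG2a library 2 (0.0551). Metrnl rose by 1.38 under IgG2a, while under anti-PD-1 Apod fell by 1.44 and Fstl1 rose by 1.80, the last lost without any lean anti-PD-1 library, lean IgG2a library 2 or obese anti-PD-1 library 1, 2, 5, 6 or 7 (up to 0.0907). Over both antibodies 9 of 31 rose and 3 fell, beside 18.8% of all genes called. Retnlg (3.97) and Wfdc21 (1.63) were also among those that rose, Retnlg being a relative of resistin that neutrophils express. The Wfdc21 call was lost without obese IgG2a library 5, lean IgG2a library 1, 2, 3 or 4 or lean anti-PD-1 library 4 or 5 (up to 0.0854).

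**Figure D5:**
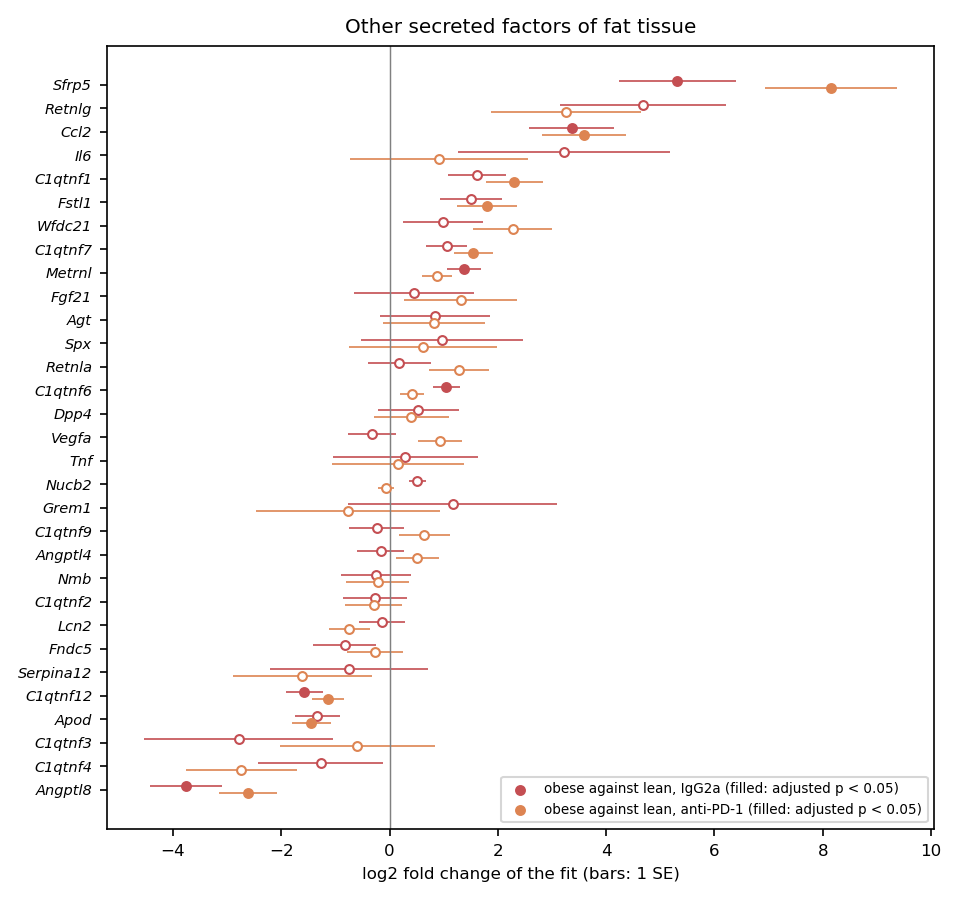
Log2 fold change of the fit for the 31 other secreted factors, obese against lean, under IgG2a and under anti-PD-1; filled points have an adjusted p under 0.05. Sfrp5 and Ccl2 lie furthest right and Angptl8 furthest left of the called genes in both comparisons.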

How the data were processed

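The 23 libraries, 1 for each mouse, came from mammary fat pad next to the tumor and were non-directional and poly(A)-selected, so reads of a gene and of an antisense partner cannot be told apart. The deposited files give estimated counts per transcript, not normalized, for 115088 transcripts. The authors also deposited TPM per transcript, scaled within each library. The submitters' processing notes name edgeR, limma and GRCm38, while no source used here names the program that made the estimates. Groups were taken from the labels, which give no batch.

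Of the transcripts, 114200 matched GENCODE M21 and 888 did not (at most 0.208% of the counts of a library). Both values were added over the transcripts of each gene, and counts were rounded. Genes kept by filterByExpr (minimum count 10) were scaled by TMM and fitted with 1 mean per group over all 23 libraries, in edgeR 4.0.16 with R 4.3.3, using robust quasi-likelihood tests, two-sided, with Benjamini-Hochberg adjustment over 19882 genes. All 9 adipokine genes passed the filter. The common biological coefficient of variation was 0.805. The contrasts were obese against lean under each antibody and over their mean, the antibodies against each other in lean and in obese mice, and the interaction. CPM are TMM-scaled and are given as the group's mean ± SD. Scores are means of log2 CPM (prior count 2). Alternatives used DESeq2 1.42.0 or limma 3.58.1, other filters, scalings, scores as covariates, and each library left out in turn. Since an estimated count is no molecule, depth bears on counting error alone. The fit was tested on simulated data with known changes, and the outcome is not given here. The members, gene lists and tests were chosen with earlier results of these data known. By rule the text names the 9 genes, the called members of each list, and the 3 genes most like each adipokine with a mean of at least 4 CPM. A member of the list of secreted factors is not reported here and was left out of its counts. Receptor genes named without a call and the printed promoters were chosen after their values were seen.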

Additional observations from a re-analysis of the deposited data

Results flagged for a closer look

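Of 36 combinations of an adipokine and a group, 1 held a library that stood far from the others of its group by Dixon's 95% limit. Lep in lean anti-PD-1 library 2 was at 319 CPM, while the next highest of the 5 libraries was at 96.3 and the lowest at 79.1 CPM. The gap was 0.928 of the group's range, against a limit of 0.71 for 5 samples. Chance alone gives such a mark to about 1 group in 20 if the values are normally distributed, which CPM need not be. Leaving this library out brought the Lep difference between obese and lean IgG2a mice past the threshold and took nothing from the call under anti-PD-1.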

How the results depend on the processing

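No paired analysis was possible because the labels give animal numbers and no replicate numbers shared between groups. Of 1553 recomputed values, 1321 kept their direction and side of the threshold, 107 lost a call, 22 gained one, 85 counts, ranks or levels moved and 18 changed sign. Leaving out each library in turn left 1 to 5 adipokines called under IgG2a, 3 to 6 under anti-PD-1, 5 to 8 over both antibodies, and 0 to 0 in the antibody comparisons and the interaction. Fewer were called under IgG2a with only the groups compared (2) and on log2(TPM + 1) or log2(TPM + 0.1) (1 each), under anti-PD-1 with high B cell score libraries (2) and over both antibodies on log2(TPM + 0.1) (5). Voom with quality weights called 2 in obese mice between antibodies and 1 in the interaction. In CPM in place of TPM, Lep ranked 3, Retn 4, Nampt 7 and Nrg4 8.

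In the obesity comparisons and levels, signs that changed belonged to Adipoq, Apln, Nampt and Nrg4, and the cause was not tested. Of 936 refits of the 27 antibody and interaction differences of the adipokines, 40 turned direction and 3 were called. With the fat cell score as a covariate Adipoq was at 0.0031 under IgG2a and -0.11 under anti-PD-1. Relative to the 12 fat cell markers that were never called it was at -0.088 under IgG2a. With the B cell score as a covariate Adipoq was at -0.25 under anti-PD-1 and Apln at -0.10 under IgG2a. In high B cell score libraries Adipoq was at -1.01 under anti-PD-1, and Apln at -1.49 under IgG2a, -0.11 under anti-PD-1 and -0.80 over both. Over both antibodies Adipoq was at 0.021 with voom and at 0.15 on either TPM scale. Nampt was at 0.088 under anti-PD-1 and 0.039 over both on log2(TPM + 1), and at 0.091 and 0.038 on log2(TPM + 0.1), and Nrg4 was at 0.15 under anti-PD-1 on each. The median of all genes was also higher on log2(TPM + 0.1), at 0.29 under IgG2a and 0.47 under anti-PD-1.

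The number of genes called under IgG2a was 1152 in the fit reported, 2090 with DESeq2's Wald test, 4877 with voom, 583 with only the groups compared, 2475 and 2932 with the fat cell and B cell scores as covariates, and 1896 in high B cell score libraries. Under anti-PD-1 it was 1999, 3122 with DESeq2, 6369 with voom, 3448 with the fat cell score, 574 in high B cell score libraries and 3576 or 3708 on the TPM scales. Over both antibodies it was 3731, 8193 with voom, 6192 with the fat cell score and 5807 or 5777 on the TPM scales. Leaving out each library in turn gave 495 to 1662, 1108 to 2432 and 2991 to 4509 genes in these comparisons. Between antibodies in obese mice it was 107, and 0 to 2694 over the alternatives. Depth limits Apln most, whose lowest library held 38 estimated counts.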
